A study of Mus musculus with 50 samples.

Results

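This report follows 10 genes of blood vessel walls in mouse dorsal root ganglion across 25 inbred strains. The genes are Rgs5, Pdgfrb, Acta2 and Myh11, which mark pericytes and smooth muscle (the mural cells), and Cldn5, Esam, Pecam1, Cdh5, Kdr and Flt1, which mark endothelium. They were taken by name, with every probe set whose annotation gives that symbol alone: 21 probe sets of the 45037 on the array that are no controls. Of these, 14 probe sets of 9 genes were bright enough to be tested, against 22205 tested probe sets in all. Kdr had 1 probe set, 1449379_at, which did not exceed 3.55 on the log2 scale on any array and was not tested.

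Dorsal root ganglia, which hold the cell bodies of sensory neurons, were taken from naive wild-type mice aged 2 months. Each strain gave 1 pool of 3 males and 1 pool of 3 females, and each pool was hybridised to 1 Affymetrix array, 50 arrays in all. The strains, spelled as in the labels, were 129S1/Sv1mJ, A/J, AKR/J, BALB/CByJ, BTBT T+tf/J, BUB/BnJ, C3H/HeJ, C57BR/cdJ, C58/J, CBA/J, DBA/2J, FVB/NJ, KK/HIJ, MRL/MpJ, NOD/LtJ, NON/LtJ, NZO/HILtJ, NZW/LacJ, P/J, PL/J, RIIIS/J, SJL/J, SM/J, SWR/J and c57BL/6J. A strain thus has 2 replicates, 1 of each sex, and p-values for strain measure strain differences against the spread between these pools. All levels below are log2(intensity + 1), and differences are on that scale. Levels of different probe sets are not comparable with each other, since each probe set has its own brightness.

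Capillaries are tubes of endothelial cells sealed by junction proteins and wrapped by pericytes, while arterioles carry a coat of smooth muscle instead. Endothelial cells recruit pericytes by secreting PDGF-B, which acts on the receptor that Pdgfrb encodes. VEGF drives endothelial growth mainly through the receptor of Kdr, while Flt1 encodes a decoy-like receptor for it. In the dorsal root ganglion, a dense capillary bed surrounds the neuron cell bodies and is known to be leakier than that of the brain.

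Upstream sequences are shown for Rgs5, whose strain differences were the widest of the 10 genes, for Acta2, a smooth muscle gene, and for Cldn5, an endothelial gene with differences of its own. Each runs 5′ to 3′ on the strand of the gene over 300 bases, 250 before and 50 after the start of the gene, in RefSeq's table for GRCm38.p6, a reference built from C57BL/6J. The table held 5 of the 10 genes. Capitals mark GGAA and its reverse complement TTCC, the core of the sites that ETS factors bind. The intervals are chr1:169655251-169655550 on the plus strand for Rgs5, chr19:34255324-34255623 on the minus strand for Acta2 and chr16:18776597-18776896 on the plus strand for Cldn5.
Rgs5: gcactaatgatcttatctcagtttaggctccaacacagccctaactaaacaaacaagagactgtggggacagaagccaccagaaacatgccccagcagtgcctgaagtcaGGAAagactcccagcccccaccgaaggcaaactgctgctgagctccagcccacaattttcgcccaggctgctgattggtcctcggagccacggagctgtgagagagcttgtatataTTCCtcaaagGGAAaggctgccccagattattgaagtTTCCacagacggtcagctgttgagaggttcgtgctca
Acta2: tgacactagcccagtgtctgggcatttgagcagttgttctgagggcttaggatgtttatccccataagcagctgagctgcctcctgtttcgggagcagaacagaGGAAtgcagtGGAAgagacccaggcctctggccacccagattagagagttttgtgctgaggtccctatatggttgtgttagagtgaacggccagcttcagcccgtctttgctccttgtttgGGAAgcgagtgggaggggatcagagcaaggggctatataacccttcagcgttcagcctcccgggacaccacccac
Cldn5: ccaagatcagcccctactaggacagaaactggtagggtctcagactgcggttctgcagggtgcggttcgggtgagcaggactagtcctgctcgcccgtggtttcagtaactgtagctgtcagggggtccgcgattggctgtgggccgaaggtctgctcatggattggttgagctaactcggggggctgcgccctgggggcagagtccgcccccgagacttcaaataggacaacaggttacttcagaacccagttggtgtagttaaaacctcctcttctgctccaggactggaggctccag

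GGAA, counted on both strands, occurred 4 times in the Rgs5 interval, 3 times in that of Acta2 and 0 times in that of Cldn5. It occurred at least once in 96% of 32851 promoter intervals of the same length, and at least 4 times in 46.3% of them. TATAAA, held by 13.6% of all intervals, occurred in none of these 3, and CANNTG, the E-box core, held by 72.3%, occurred 1, 3 and 1 times in the order above. The CArG box, which serum response factor binds in smooth muscle genes, was searched in its strict form, CCWWWWWWGG with W for A or T. That form was found in 1.63% of all intervals and in 0 of these 3. Stretches with 1 letter off were not counted, and the Acta2 interval holds such stretches, ccctatatgg and ccttgtttgg. A letter match is not evidence of binding, and strain genomes were not analysed here.

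Some arrays stood apart. The floor of the intensities lay at 1.629 to 1.655 in the 25 male arrays and at 1.726 to 1.744 in the 25 female ones, ranges that do not overlap. On 2 arrays some markers of sex went against the label. Xist was at 8.97 in the male PL/J array, against at most 7.78 in the other 24 male arrays, while Eif2s3y and Kdm5d were there at male levels (6.52 and 3.82). In the female SM/J array Eif2s3y was at 6.82, against at most 3.46 in the other 24 female arrays, but Kdm5d, also on the Y chromosome, was at 2.67, inside the range of the other females (2.66 to 2.77). For Gapdh, the 3′ probe set exceeded the 5′ one by 0.60 on the male BTBT T+tf/J array and by 0.34 on the female P/J array, against at most -0.09 elsewhere. After the mean of each sex was removed, 40 of 50 arrays correlated best, over all tested probe sets, with the other array of their own strain, and P/J had the lowest correlation between its 2 arrays (r = 0.14, against a median of 0.50). The ganglion markers Isl1, Prph, Avil and Scn10a were at 8.85 or above on every array.

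Rgs5 encodes a GTPase-activating regulator of G protein signalling and is among the most specific transcripts of brain pericytes. Its leading probe set, 1417466_at, averaged 9.46 and was above 4 on all 50 arrays. Strain means ran to 11.35 in CBA/J, with a median of 9.23 and a lowest value of 8.24 in MRL/MpJ. The range of 3.11 corresponds to 8.63-fold on the scale of intensity + 1 (limma F test over 25 strains with Benjamini-Hochberg adjustment, adjusted p = 3.07e-13). That range was the 150th widest of 11231 tested genes, whose median range was 0.82.

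The strain means of this probe set fell into 2 separate sets. CBA/J had 10.99 in its male and 11.70 in its female array, DBA/2J 11.16 and 11.25, and AKR/J 10.97 and 11.41. C58/J had 10.72 and 11.08, c57BL/6J 10.44 and 11.18, BALB/CByJ 10.57 and 10.69, and C57BR/cdJ 10.25 and 10.54. The other 18 strains began with P/J at 9.05 and 10.24, and their means ran from 9.64 in P/J through a median of 8.84 to 8.24 in MRL/MpJ. A gap of 0.75 separated C57BR/cdJ at a mean of 10.40 from P/J at 9.64, and the next widest gap between neighbours in the order was 0.29. At array level the sets only just parted, with the lowest array of the 7 strains at 10.25 and the female P/J array, the highest of the 18 strains, at 10.24.

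Of the 24 steps between neighbouring strains in this order, 1 exceeded 0.47, the difference that 2 strains need for an unadjusted p under 0.05 in the same fit. Neighbours elsewhere in the order did not differ beyond their spread. Over all 300 pairs of strains, 200 exceeded it.

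**Figure D1:**
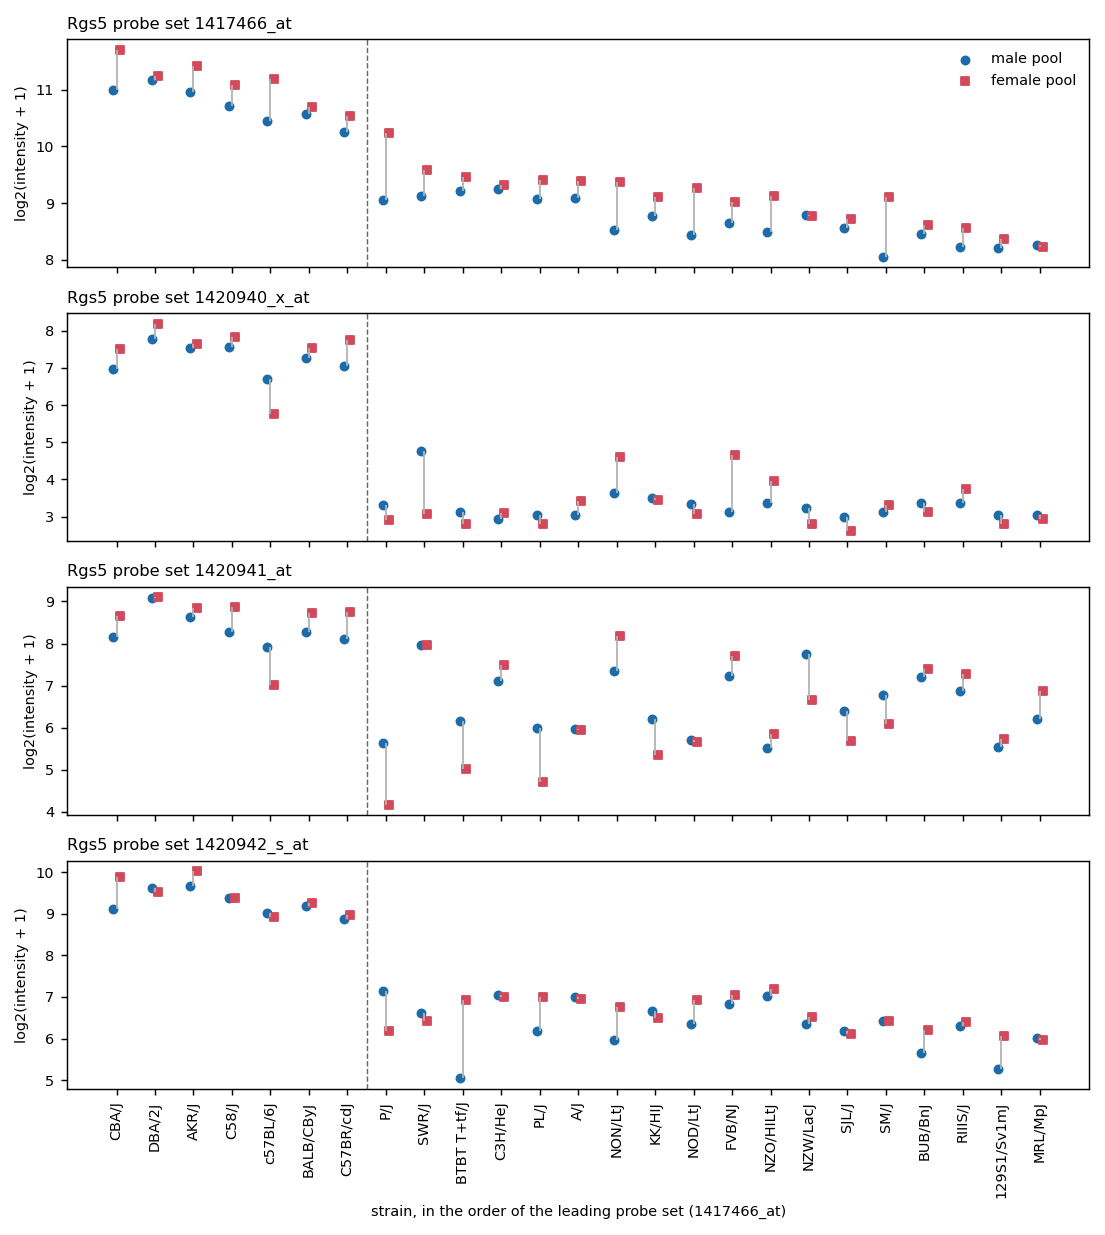
Levels of Rgs5 in 25 strains on its 4 probe sets, as log2(intensity + 1), with male pools as circles, female pools as squares and a grey line joining both pools of a strain. Strains are ordered by the leading probe set, and the dashed line marks its gap of 0.75 between C57BR/cdJ and P/J; the same 7 strains stand apart in 1420940_x_at and 1420942_s_at, but not in 1420941_at.

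The 3 further Rgs5 probe sets were called for strain too. On 1420940_x_at the range was 5.18 (adjusted p = 1.68e-13), on 1420942_s_at 4.19 (adjusted p = 5.91e-12) and on 1420941_at 4.19 (adjusted p = 2.76e-08, limma F test throughout). On 1420940_x_at the same 7 strains had means of 6.23 to 7.99 and the other 18 had means of 2.80 to 4.12, a gap of 2.11. Both arrays were above 4 in 7 strains and at or below 4 in 15 strains. On 1420942_s_at these means were 8.93 to 9.85 and 5.66 to 7.11, a gap of 1.82, with no overlap of single arrays.

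On 1420941_at no such break was seen. Its widest gap was 0.53, with 14 strains above and 11 below, and c57BL/6J at 7.46 lay under SWR/J at 7.96, NON/LtJ at 7.77 and FVB/NJ at 7.47. P/J, which led the 18 strains on 1417466_at, was the lowest of all on 1420941_at at 4.90, with 5.63 in its male and 4.17 in its female array. The female P/J array also stood apart above in its Gapdh value (0.34), and the part of that here was not tested. Within the 18 strains, 1417466_at and 1420941_at had no correlation that passed (r = -0.18, permutation p = 0.479; rho = -0.13, p = 0.599), whereas 1417466_at and 1420942_s_at moved together (r = 0.52, permutation p = 0.0268; rho = 0.53, p = 0.0269; r = 0.47 without MRL/MpJ and P/J, the farthest from the median). Within the 7 strains, r between 1417466_at and 1420942_s_at was 0.82 (exact permutation p = 0.0264, n = 7; rho = 0.82, p = 0.0341; r = 0.80 without C57BR/cdJ and CBA/J). The probe sets 1420940_x_at and 1420941_at moved together in both sets, with r = 0.98 in the 7 strains (exact permutation p = 0.00179, n = 7; rho = 0.96, p = 0.00278; r = 0.76 without c57BL/6J and DBA/2J) and 0.57 in the 18 (permutation p = 0.0144; rho = 0.55, p = 0.0183; r = 0.31 without NON/LtJ and SWR/J). Neither of them followed 1417466_at, with r of 0.24 and 0.34 in the 7 strains and 0.08 and -0.18 in the 18, none of which passed. The same 7 strains led in 3 of the 4 probe sets. Probe sequences were not used here.

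Single strains were tested against the average of the remaining 24, where a call needed a difference of at least 1 and adjustment ran over all probe sets and strains. The 10 genes had 53 calls, all of them on Rgs5 probe sets, 26 higher and 27 lower than the other 24 strains. For background, 12.7% of all tested probe sets were called in at least 1 strain, and 1.14% of all combinations of probe set and strain were called. CBA/J, DBA/2J, AKR/J, C58/J and BALB/CByJ were called higher on all 4 probe sets, and C57BR/cdJ and c57BL/6J on 3. On 1417466_at the differences were 1.97 in CBA/J (SE 0.17, adjusted p = 2.11e-09), 1.82 in DBA/2J and 1.81 in AKR/J. On the low side, 129S1/Sv1mJ was called lower on all 4 probe sets, with -1.21 on 1417466_at (adjusted p = 1.62e-05), and MRL/MpJ and BTBT T+tf/J on 3. The male BTBT T+tf/J array stood apart above in its Gapdh value. On 1420942_s_at the pools of BTBT T+tf/J differed by 1.66 after the mean of each sex was removed. DBA/2J also had the highest mean of a list of 4 liver transcripts, among them Alb and Ttr, at 4.33 above the mean of all strains; the part of this in its Rgs5 level was not tested.

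Within the mural genes, Pdgfrb, the receptor for PDGF-B on pericytes, differed modestly. Its leading probe set 1436970_a_at averaged 8.29, with strain means from 8.84 in C3H/HeJ through a median of 8.31 to 7.58 in NZO/HILtJ. C3H/HeJ had 9.00 in its male and 8.68 in its female array, P/J 8.40 and 9.05, and BTBT T+tf/J 9.03 and 8.41. NZO/HILtJ had 7.25 and 7.91, RIIIS/J 7.39 and 7.87, and NOD/LtJ 7.57 and 7.84. The range was 1.27 (limma F test, adjusted p = 0.00103). The highest array of the 3 lowest strains, at 7.91, lay below every array of the 3 highest.

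The second tested probe set of Pdgfrb, 1417148_at, was dimmer at a mean of 5.01 and ranged by 0.89 from CBA/J at 5.49 to RIIIS/J at 4.61 (adjusted p = 0.0482). The call was lost without SM/J and PL/J (adjusted p = 0.0691), without the male BTBT T+tf/J and female P/J arrays (0.0619), without the filter on dim probe sets (0.0792), with array weights (0.0758) and in 39 of 50 fits that left out a single array (adjusted p between 0.00727 and 0.102 over the 50). Over 25 strains both Pdgfrb probe sets moved together (r = 0.67, permutation p = 0.00031; rho = 0.67, p = 0.00045; r = 0.60 without NZO/HILtJ and RIIIS/J). In a limma fit with the leading Pdgfrb probe set as covariate, which called 137 of 22204 other probe sets (0.617%), the second Pdgfrb probe set was among those called (adjusted p = 0.0438).

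Acta2 and Myh11 encode the actin and the myosin heavy chain of smooth muscle. The Acta2 probe set 1416454_s_at averaged 8.03, with strain means from 8.71 in AKR/J through a median of 7.99 to 7.23 in SJL/J. AKR/J had 8.82 in its male and 8.60 in its female array, NON/LtJ 8.06 and 9.09, and C3H/HeJ 9.23 and 7.89, against 6.98 and 7.47 in SJL/J. The range of 1.48 did not pass the test (adjusted p = 0.0559); with single arrays left out the adjusted p lay between 0.0130 and 0.106. The pools of C3H/HeJ differed by 1.19 after the mean of each sex was removed.

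Myh11 was dim on its tested probe set 1448962_at, at a mean of 4.31 and above 4 on 35 of 50 arrays. AKR/J had 5.64 in its male and 4.66 in its female array, and C3H/HeJ 6.08 and 4.13, against 4.26 and 3.37 in RIIIS/J. Strain means ran from 5.15 in AKR/J to 3.82 in RIIIS/J, a range of 1.33 (adjusted p = 0.0259). Leaving out the male AKR/J array ended that call (adjusted p = 0.0743). The further probe sets of Acta2 (1444105_at and 1456658_at) and Myh11 (1418122_at) stayed at or below 3.22 on every array.

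Among the junction genes of endothelium, Cldn5, whose claudin seals the tight junctions of barrier vessels, varied most. Its probe set 1417839_at averaged 6.58 and ranged by 1.64 (adjusted p = 5.53e-05), with a median strain mean of 6.57. NZW/LacJ had 7.33 in its male and 7.50 in its female array, MRL/MpJ 7.35 and 7.05, and C57BR/cdJ 6.89 and 7.14. SJL/J had 5.55 and 5.99, RIIIS/J 5.65 and 6.19, and CBA/J 5.69 and 6.60. The arrays of the 3 highest strains lay above those of the 3 lowest in both sexes. CBA/J, the strain with the highest Rgs5 on 1417466_at, was among these 3 lowest strains for Cldn5. C57BR/cdJ, also above the Rgs5 gap, was among the 3 highest.

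Esam, an adhesion molecule of endothelial junctions, ranged by 0.81 on 1460356_at (adjusted p = 0.0308), less than the median range of 0.87 over all tested probe sets. C3H/HeJ had 6.45 in its male and 6.57 in its female array and BALB/CByJ 6.34 and 6.47, against 5.51 and 5.90 in RIIIS/J and 5.82 and 5.73 in BUB/BnJ. Without the male C3H/HeJ array the call was lost (adjusted p = 0.0895), as it was without the male BALB/CByJ array (adjusted p = 0.0696) and without either RIIIS/J array (adjusted p = 0.0522 and 0.0580).

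Pecam1, the adhesion molecule CD31, and Cdh5, the cadherin of adherens junctions, were near the floor. Pecam1 (1421287_a_at) averaged 3.90, was above 4 on 25 of 50 arrays and ranged by 0.87 from A/J to RIIIS/J (adjusted p = 0.675). Cdh5 (1433956_at) averaged 3.59, was above 4 on 4 arrays and ranged by 0.80 from P/J to KK/HIJ (adjusted p = 0.218); its second probe set, 1422047_at, was not tested. At such levels the arrays cannot show a small strain difference.

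The VEGF receptor genes gave no strain call. Flt1, the decoy-like receptor for VEGF, averaged 4.93 on 1451756_at and was above 4 on all 50 arrays. Its strain means ran from 5.42 in P/J through a median of 4.96 to 4.35 in c57BL/6J, a range of 1.07 (adjusted p = 0.147). On 1419300_at it averaged 3.93 and ranged by 0.61 (adjusted p = 0.687). The further Flt1 probe sets 1440926_at and 1454037_a_at and the 1 probe set of Kdr, the main signalling receptor for VEGF, were below 4 on every array; Kdr strain means ran from 3.32 in C3H/HeJ to 2.81 in NZW/LacJ.

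**Figure D2:**
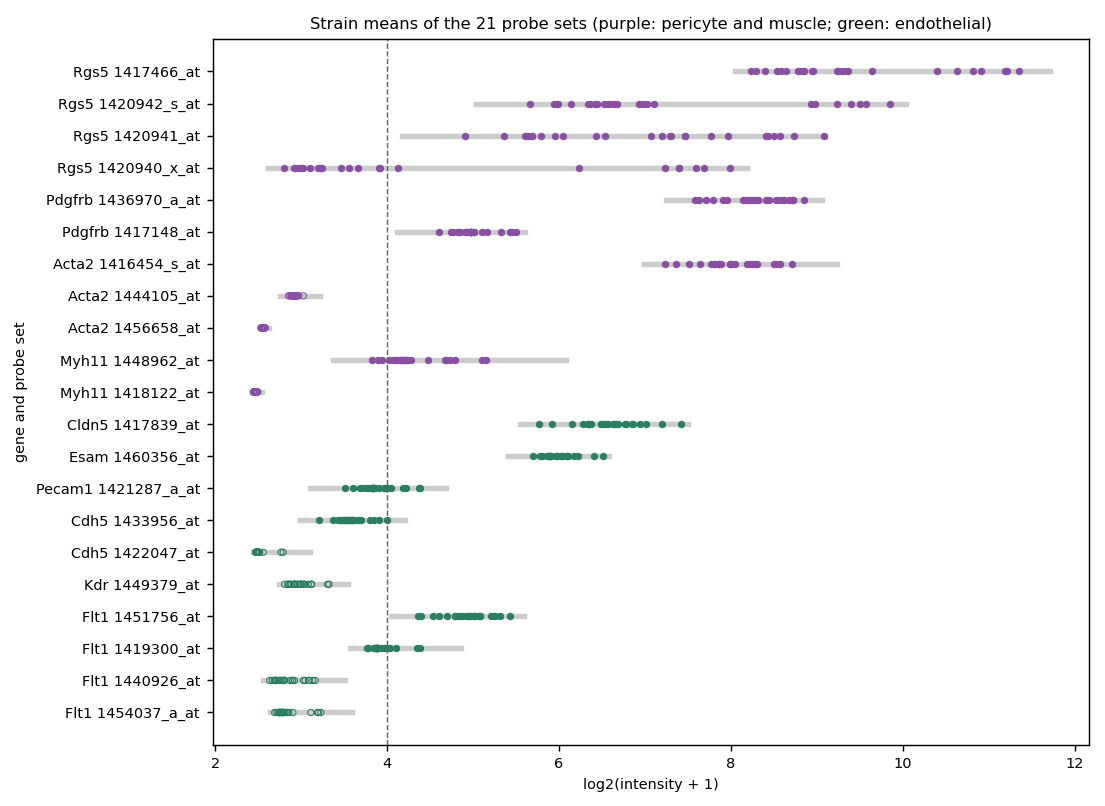
Strain means (points, 25 for each probe set) and the range over 50 arrays (grey bars) of the 21 probe sets, as log2(intensity + 1); filled points mark tested probe sets, open points untested ones, and the dashed line the level of 4 used in the filter. The 4 Rgs5 probe sets spread over 3.11 to 5.18, against 1.64 or less for any other probe set.

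Counted together, 9 of the 14 probe sets were called for strain, 4 of Rgs5, 2 of Pdgfrb and 1 each of Myh11, Cldn5 and Esam. Over all tested probe sets 24.7% were called, and 19% of those with a mean of 5 or less. The ranges of the called probe sets of genes other than Rgs5 were 0.81 to 1.64, against a median range of 1.37 over all called probe sets. In bulk tissue, fewer vessel cells and less RNA in each cell cannot be told apart.

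Both arrays of a strain were then set against each other. Over 25 strains the male and female values of Cldn5 correlated at r = 0.79 (permutation p = 1e-05, the smallest these 100000 resamples can give; rho = 0.77; r = 0.73 without MRL/MpJ and NZW/LacJ). Pdgfrb gave r = 0.67 on its leading probe set (p = 0.00023; rho = 0.72, p = 0.00011) and 0.56 on the other (p = 0.00508; rho = 0.38, p = 0.0591). For Esam r was 0.51 (p = 0.0101; rho = 0.44, p = 0.0286), but 0.27 without BALB/CByJ and C3H/HeJ, so that it rests on these strains. Myh11 gave r = 0.47 (p = 0.0176; rho = 0.46, p = 0.0214; r = 0.39 without AKR/J and C3H/HeJ).

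The genes without a strain call gave lower r. Acta2 had r = 0.37 (permutation p = 0.0726), Cdh5 0.26 (p = 0.199), Flt1 0.27 on 1451756_at (p = 0.196) and -0.07 on 1419300_at (p = 0.633), and Pecam1 -0.10 (p = 0.625). These are 10 probe sets in 1 family of tests with unadjusted p. By rank Cdh5 had rho = 0.49 (permutation p = 0.0129), and its r was 0.46 without C3H/HeJ and PL/J. No other gene without a strain call passed by rank. Its rho was 0.39 for Acta2 (permutation p = 0.0571), 0.06 and 0.09 for Flt1 on 1451756_at and 1419300_at, and -0.02 for Pecam1. Over all 22205 tested probe sets the median r was 0.24, and 3.54% had r above 0.8.

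Since Rgs5 strains formed 2 sets, its agreement was taken inside each. On 1417466_at r was 0.77 over the 7 strains (exact permutation p = 0.0472, n = 7; rho = 0.79, p = 0.048) and 0.68 over the 18 strains (permutation p = 0.00138; rho = 0.73, p = 0.00082; r = 0.69 without C3H/HeJ and BTBT T+tf/J). On 1420941_at it was 0.64 over the 7 strains (exact permutation p = 0.148, n = 7) and 0.79 over the 18 strains (permutation p = 0.00014). On 1420942_s_at it was 0.68 over the 7 (exact permutation p = 0.1, n = 7) and 0.32 over the 18 (permutation p = 0.19). On 1420940_x_at it was 0.78 over the 7 (exact permutation p = 0.00536, n = 7, r = 0.48 without c57BL/6J and DBA/2J). Over the 18, which lie near the floor there, it was 0.15 (permutation p = 0.508). By rank these 18 gave rho = 0.53 (permutation p = 0.0268), and r was 0.31 without NON/LtJ and SWR/J.

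The limma strain test was repeated inside each set, an alternative added after the values were seen. Within the 7 strains 1417466_at stayed called (range 0.95, adjusted p = 0.0432), and the other 3 did not, with adjusted p of 0.0731 for 1420940_x_at, 0.113 for 1420941_at and 0.0878 for 1420942_s_at. Within the 18 strains 1417466_at (range 1.41, adjusted p = 0.00449) and 1420941_at (range 3.06, adjusted p = 0.000474) stayed called, and 1420940_x_at (range 1.32, adjusted p = 0.343) and 1420942_s_at (range 1.45, adjusted p = 0.172) did not.

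**Figure D3:**
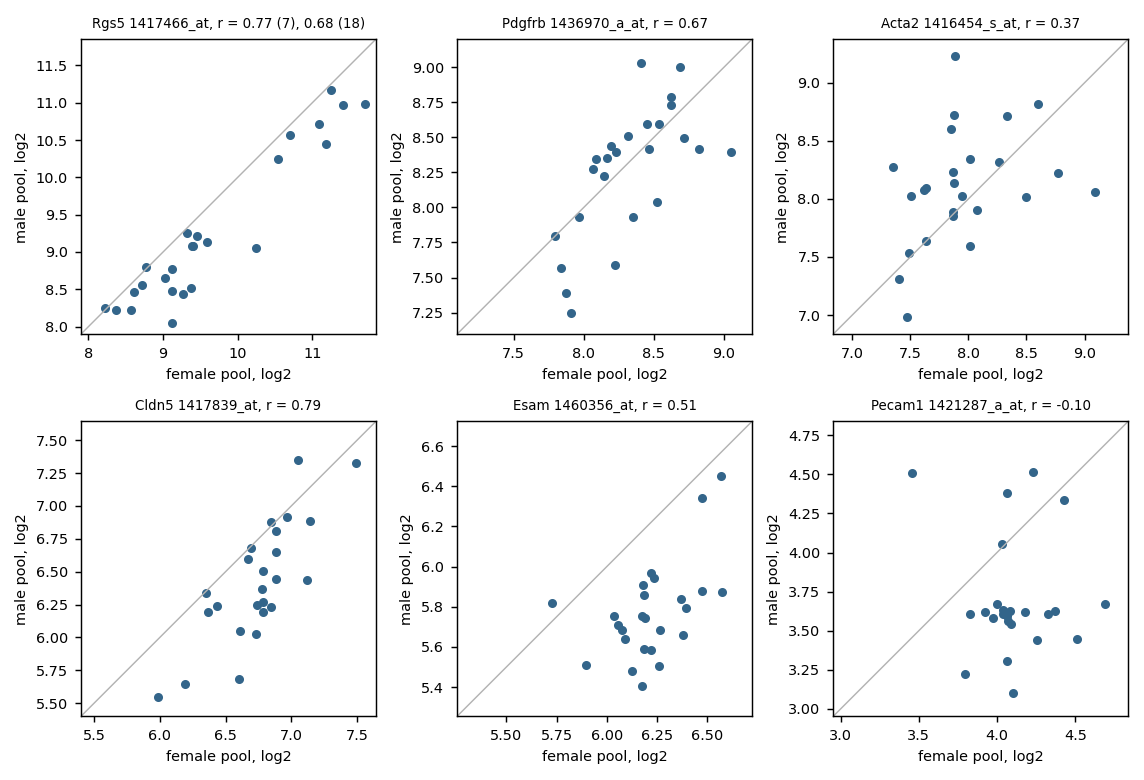
Male against female level of 6 leading probe sets, 1 point for each of 25 strains, in log2(intensity + 1), with the line of equality. Rgs5 strains form 2 clouds, so r is given for the 7 and the 18 strains; Cldn5 (r = 0.79) and Pdgfrb (r = 0.67) follow a line, and Pecam1 (r = -0.10) does not.

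Sex was compared in the same fit, with strain as a block. Of the 14 probe sets, 6 were called. Myh11 was higher in males by 0.64 (SE 0.08, adjusted p = 2.77e-07), at 4.63 ± 0.48 in males and 3.99 ± 0.33 in females (SD, n = 25 each), and Pdgfrb on 1417148_at by 0.30 (adjusted p = 4.55e-05). Lower in males were Esam (-0.45, adjusted p = 3.09e-09), at 5.77 ± 0.24 in males and 6.22 ± 0.20 in females, Rgs5 on 1417466_at (-0.41, adjusted p = 5.05e-06), Pecam1 (-0.41, adjusted p = 0.000314) and Cldn5 (-0.33, adjusted p = 2.23e-05). Over all tested probe sets 23.6% were called higher and 34% lower in males, 57.6% in all, so that 6 of 14 is under the background. The non-overlapping array minima run with sex, and sex and a separate normalization of the arrays of each sex cannot be told apart.

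The question of whether Rgs5 moves with the other mural genes or with endothelial genes was put to strain means, each sex first centred over strains. With the leading Rgs5 probe set as covariate over 25 strains, limma called 3 of 22204 other probe sets (0.0135%): 1420942_s_at (adjusted p = 3.21e-10) and 1420940_x_at (adjusted p = 1.61e-07) of Rgs5 itself, and 1447096_at (adjusted p = 0.0266), which has no symbol in the table used and was named after its values were seen. The third Rgs5 probe set, 1420941_at, was not called (adjusted p = 0.378). None of the 10 probe sets of other members was called, with adjusted p of 0.999 or above for each. Without adjustment, at a limma p under 0.05, the leading probe set of Pdgfrb was the 1 of these 10 that passed (slope 0.15), against 4.18% of all probe sets.

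With strains in 2 sets, no correlation over all 25 is given for the members; r was computed inside each set. In the 18 strains the endothelial genes had positive r: Cdh5 0.62 (permutation p = 0.00551; rho = 0.62, p = 0.0071), Esam 0.58 (p = 0.0108; rho = 0.62, p = 0.00684), Pecam1 0.51 (p = 0.0311; rho = 0.50, p = 0.0366) and Flt1 0.43 on 1451756_at (p = 0.0779) and 0.64 on 1419300_at (p = 0.0018; rho = 0.61, p = 0.0086). Cldn5 was the exception at 0.04 (permutation p = 0.88). Of these genes only Cldn5 and Esam had a strain call, with male to female r over 25 strains of 0.79 and 0.51. Cdh5, Pecam1 and both Flt1 probe sets had none. Their male to female r was 0.26 for Cdh5, -0.10 for Pecam1, and 0.27 (1451756_at) and -0.07 (1419300_at) for Flt1. Strain means of Pecam1 and Flt1 were thus poorly reproduced between pools. Those of Cdh5 were reproduced by rank (rho = 0.49, permutation p = 0.0129) but not by r. Of the mural genes, Pdgfrb had 0.57 (p = 0.0154; rho = 0.59, p = 0.0111) on its leading probe set and 0.27 (p = 0.285) on the other. The smooth muscle genes had r of 0.07 for Acta2 (permutation p = 0.786) and -0.06 for Myh11 (p = 0.823).

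These 10 relations passed no test over all probe sets. In the limma fit over the 18 strains, which called 12 of 22204 probe sets (0.054%), the lowest adjusted p of a member was 0.128 (Flt1, 1419300_at), followed by 0.134 (Cdh5), 0.158 (Pdgfrb), 0.175 (Esam) and 0.229 (Pecam1). At an unadjusted p under 0.05, 5 of the 10 passed, against 16.7% of all probe sets. By leading probe set, the median r of the 5 tested endothelial genes was 0.51, that of the 3 mural genes 0.07 and that of all tested genes 0.02; these are descriptions, and the difference between the classes was not tested.

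Some of these values turn on a few strains. Without MRL/MpJ and P/J, the farthest from the Rgs5 median, r was 0.58 for Cdh5, 0.51 for Esam, 0.65 for Pecam1, 0.49 for Pdgfrb and 0.47 for Flt1 on 1419300_at. Without SM/J and PL/J these were 0.59, 0.57, 0.54, 0.53 and 0.62. Without P/J and BTBT T+tf/J they were 0.52, 0.63, 0.64, 0.44 and 0.55, with permutation p = 0.0885 for Pdgfrb. In male arrays alone the r of Pecam1 was 0.67 and in female arrays alone -0.21, whereas Cdh5 gave 0.62 and 0.51, Esam 0.64 and 0.53, and Pdgfrb 0.67 and 0.51.

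Inside the 7 strains above the Rgs5 gap no r of a member passed an exact permutation test. Among the mural genes r was 0.36 and 0.62 on the Pdgfrb probe sets 1436970_a_at and 1417148_at, 0.08 for Acta2 and 0.28 for Myh11. Among the endothelial genes it was 0.46 for Flt1 on 1419300_at and 0.16 on 1451756_at, 0.07 for Pecam1, -0.21 for Cdh5, -0.38 for Esam and -0.62 for Cldn5. The lowest exact permutation p was 0.121 (Pdgfrb 1417148_at, n = 7). Without C57BR/cdJ and CBA/J, Cdh5 had 0.32, Cldn5 0.14, Esam -0.77 and Acta2 0.52. No member passed there at an unadjusted p under 0.05 in limma (0 of 10, against 5.49% of all probe sets), and 0 probe sets were called after adjustment. With 7 strains, the exact permutation test rests on 5040 permutations, which limits how small its p can be.

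**Figure D4:**
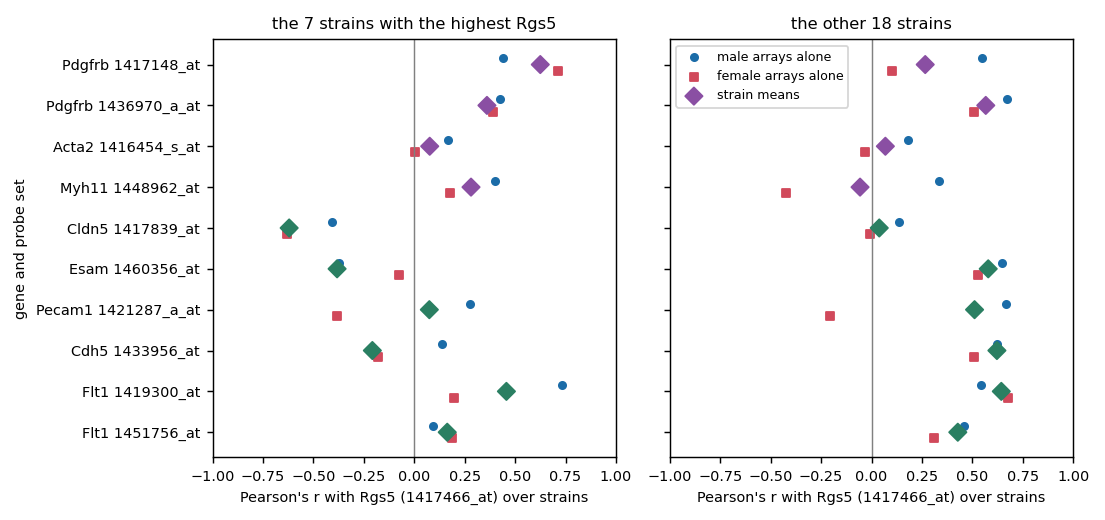
Pearson's r of each tested probe set of the other members with Rgs5 (1417466_at), over the 7 strains above its gap (left) and the 18 below it (right), from strain means (diamonds, purple for mural and green for endothelial genes), male arrays alone (circles) and female arrays alone (squares). In the 18 strains Cdh5, Esam, Pecam1, both Flt1 probe sets and the leading Pdgfrb probe set lie between 0.43 and 0.64, and Acta2, Myh11 and Cldn5 near 0.

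**Figure D5:**
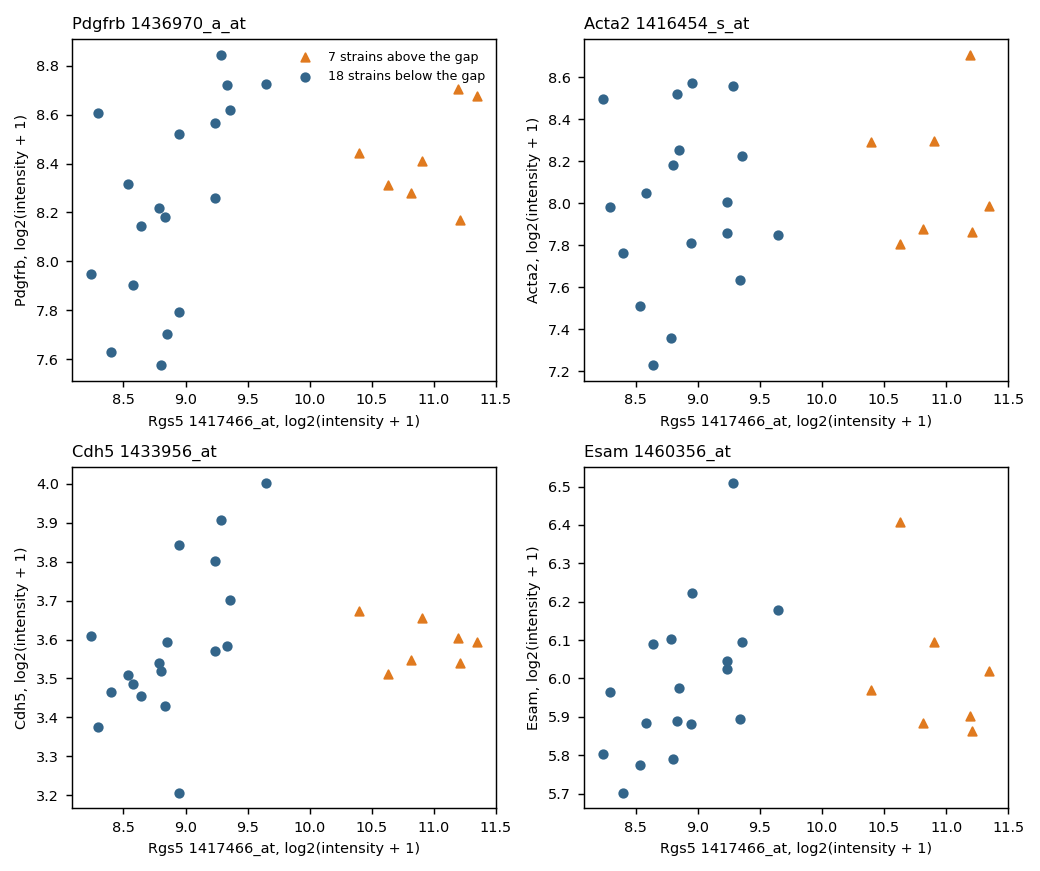
Strain means of Pdgfrb, Acta2, Cdh5 and Esam against those of Rgs5, in log2(intensity + 1), with the 7 strains above the Rgs5 gap as triangles and the 18 below it as circles. In the 18 strains r is 0.57, 0.07, 0.62 and 0.58 for these genes in that order.

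The male minus female difference of each strain carries no strain effect that both sexes share, and was correlated in the same way over 25 strains. A strain effect that differs between the sexes stays in it and cannot be told from the spread between pools. Differences of 1417466_at had no correlation that passed with those of the other 3 Rgs5 probe sets: r was 0.02 for 1420940_x_at, -0.19 for 1420941_at and -0.15 for 1420942_s_at (permutation p = 0.359 or above). Of the 10 probe sets of other members, 3 had a permutation p under 0.05: Flt1 1419300_at (r = 0.67, p = 0.00023; rho = 0.55, p = 0.0051), Pdgfrb 1436970_a_at (r = 0.57, p = 0.00282; rho = 0.55, p = 0.00527) and Esam (r = 0.55, p = 0.00457; rho = 0.51, p = 0.00943). The other 7 did not pass: r was 0.39 for Cdh5, 0.22 for Cldn5, 0.20 for Flt1 on its leading probe set 1451756_at, -0.20 for Pecam1, 0.01 for Pdgfrb 1417148_at, 0.06 for Acta2 and 0.07 for Myh11. The share of all tested probe sets that would pass was not computed for these differences, so 3 of 10 cannot be set against a background. Without P/J and SM/J, the strains farthest from the median Rgs5 difference, r was 0.50 for Flt1, 0.38 for Pdgfrb and 0.49 for Esam. P/J and SM/J are also among the strains whose arrays stood apart above, and the part of that in these values was not tested.

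Among the other 8 genes with a tested probe set, 28 pairs of leading probe sets were correlated over 25 strains. The closest was Acta2 with Myh11 (r = 0.64, permutation p = 0.00048; rho = 0.48, p = 0.0151; r = 0.54 without AKR/J and SJL/J), at 0.78 in male and 0.53 in female arrays. In limma over all probe sets with Acta2 as covariate, Myh11 had an adjusted p of 0.0560, the lowest of any pair, and 115 of 22204 probe sets were called (0.518%). Acta2 had 0.395 with Myh11 as covariate. Pdgfrb moved with Cdh5 (r = 0.58, permutation p = 0.0021, rho = 0.61, p = 0.00134) and Esam (r = 0.54, permutation p = 0.00437, rho = 0.55, p = 0.00488). In limma with Pdgfrb as covariate, the adjusted p was 0.0983 for Cdh5 and 0.120 for Esam. With Cdh5 or Esam as covariate, that of Pdgfrb was 0.306 or 0.627. Cdh5 was above 4 on 4 arrays. Esam followed Cdh5 (r = 0.55, p = 0.00576; rho = 0.52, p = 0.00832). Pdgfrb and Acta2, both mural, had r = 0.15 (p = 0.48).

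In all, 7 of the 28 pairs had an unadjusted permutation p under 0.05, and 0 were called by limma after adjustment over all probe sets. In limma without adjustment, with each of the 8 genes as covariate in turn, 14 of 56 tests had a p under 0.05 (25%). These 56 tests are the same 28 pairs, each taken in both directions, and add no further pairs. Over all probe sets in the 8 fits the share was 9.92%. By covariate it was 16.6% with Pdgfrb, 15.5% with Acta2, 8.1% with Myh11, 3.45% with Cldn5, 6.93% with Esam, 10.1% with Pecam1, 9.4% with Cdh5 and 9.21% with Flt1. The median r was 0.25 over the 3 mural pairs, 0.23 over the 10 endothelial pairs and 0.22 over the 15 pairs across classes. Cldn5 had r of 0.06 with Esam, 0.14 with Pecam1, 0.20 with Cdh5 and 0.26 with Flt1, and Flt1 had 0.14 with Esam, 0.21 with Pecam1 and 0.33 with Cdh5; none of these passed.

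Wider lists of vessel genes, none holding the 10 genes, were counted in the same way. Of 9 tested pericyte genes 4 were called, of 11 smooth muscle genes 4 and of 27 endothelial genes 10, against 26.2% of 11231 tested genes. In the pericyte list Zic1, a transcription factor, ranged by 2.90 between C57BR/cdJ and SJL/J, Vtn, which encodes vitronectin, by 2.30 between NOD/LtJ and BUB/BnJ, and Abcc9, a subunit of a potassium channel, by 1.61 between AKR/J and RIIIS/J. In the smooth muscle list Tagln, an actin-binding protein, ranged by 2.12 between AKR/J and SJL/J (adjusted p = 0.00160), the same highest and lowest strains as Acta2. In the endothelial list Slco1c1, a thyroid hormone transporter, ranged by 2.83 between NOD/LtJ and BUB/BnJ, Rgcc by 2.50 between RIIIS/J and DBA/2J, and Cd34 by 2.34 between FVB/NJ and RIIIS/J. Of 14 tested ligands and receptors of vessel growth 2 were called, Vegfa, with a range of 1.15, and the endothelin receptor gene Ednrb, with 0.92.

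None of the tested genes in these lists was called for a relation with Rgs5 in any of the 3 fits. In the 18 strains r with Rgs5 was above 0 for 23 of 27 endothelial genes (median 0.28), 12 of 14 ligands and receptors (median 0.31), 6 of 9 pericyte genes (median 0.23) and 8 of 11 smooth muscle genes (median 0.11), against a median of 0.02 over all tested genes. Some lists of no vessel cells ran above 0 there too. They were 4 of 4 Schwann cell genes (median 0.20), 4 of 5 satellite glia genes (median 0.21), 7 of 11 fibroblast and perineurium genes (median 0.18) and 4 of 4 liver genes (median 0.14). Others ran below 0, with 1 of 9 neuron genes (median -0.33), 0 of 9 skeletal muscle genes (median -0.31), 3 of 8 macrophage genes (median -0.08) and 1 of 3 adipocyte genes (median -0.06) above 0. The share of all tested genes with r above 0 was not computed. In the 7 strains the counts were 15 of 27 endothelial genes (median 0.09), 11 of 14 ligands and receptors (median 0.31), 6 of 9 pericyte genes (median 0.21) and 7 of 11 smooth muscle genes (median 0.13). By r over all 25 strains, the measure in the rule for named genes, the highest endothelial members were Egfl7, Podxl and Ptprb, whose r in the 18 strains was 0.15, 0.40 and 0.40, and the highest smooth muscle members Mustn1, Tagln and Myl9, with 0.20, 0.11 and -0.12. The highest pericyte members were Abcc9, Rgs4 and Zic1, with 0.12, -0.68 and 0.23 in the 18 strains. The lowest pericyte members were Mcam, Art3 and Notch3, with -0.35, -0.12 and 0.31 there. The order is another inside the 18 strains, where Slco1c1, among the lowest over 25 strains, had 0.56. Rgs4, a relative of Rgs5 and the next gene on chromosome 1, had r of 0.84, 0.47 and -0.07 in the 7 strains on 1416286_at, 1416287_at and 1448285_at, and -0.68, -0.59 and -0.63 in the 18. On its leading probe set 1416286_at, which averaged 12.74, the limma adjusted p was 0.888 in the 7 strains and 0.104 in the 18. Rgs4 was counted in the pericyte list, but which cells of the ganglion gave its signal was not tested.

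Lists of other cell types moved with some of these genes. The mean of 11 smooth muscle genes followed Acta2 over 25 strains at r = 0.90, but so did 11 fibroblast and perineurium genes at 0.77 and 2 red cell genes at 0.75, and 9 neuron genes ran against it at -0.65. The mean level of the fibroblast list ran over arrays from 9.94 to 7.94, and 8 of these 11 were called for strain. For Pdgfrb and Cldn5 the fibroblast values were 0.08 and 0.22. In the 18 strains Rgs5 had r of -0.34 with the neuron list and -0.33 with 9 skeletal muscle genes. These correlations share their arrays and are descriptions, and the part of other tissue in the strain differences was not tested.

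Each gene was taken by its leading probe set, and likeness to Rgs5 was measured by Pearson's r with 1417466_at over 25 strain means, with no test. The genes most like it were Zfp932 (0.61), Adam9 (0.60), Pde5a (0.59), Asxl2 (0.59), Hsd17b7 (0.59), Irgm1 (0.59), Supt20 (0.57) and Fnbp4 (0.57). The most unlike were Anxa6 (-0.68), Cacna2d2 (-0.63), Gfra3 (-0.62), Stim1 (-0.61), Dusp12 (-0.59), 1700094D03Rik (-0.59), Lrrc31 (-0.59) and Apip (-0.58). None of the 16 was called. The values mix the step between both sets of strains with the spread inside them: in the 18 strains alone Zfp932 had 0.17, Pde5a 0.66, Asxl2 0.65, Anxa6 -0.73 and Cacna2d2 0.09.

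Of these, Hsd17b7, an enzyme of sterol and steroid synthesis, lies 5 genes from Rgs5 on chromosome 1, and Dusp12 24 genes away. Hsd17b7 was called for strain on 1457248_x_at (range 1.51, adjusted p = 0.000114), highest in c57BL/6J and lowest in MRL/MpJ. Within 10 genes of Rgs5, a window chosen after values had been seen, the lowest adjusted p for a relation with Rgs5 was 0.0982, for Hsd17b7 on 1448865_at. On that probe set, which is not the leading one, r was 0.72 over 25 strains, above all leading probe sets named, -0.55 in the 7 strains and 0.27 in the 18. Likewise Uap1, 8 genes away, had -0.64 over 25 strains on 1416745_x_at, which is below Cacna2d2.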

How the data were processed

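RNA of dorsal root ganglia from 25 strains was measured on 50 arrays. Per the submitters' processing notes, GCRMA and R 2.6.2 were used; the deposited table holds linear intensity values for each probe set, and whether the sexes were normalized together is not given in the sources used here. The number of arrays limits the precision.

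Intensities were taken as log2(value + 1). The 64 control probe sets were left out, and the 22205 probe sets above 4 in at least 2 arrays were kept. Strain (25 levels) and sex were fitted together with limma 3.58.1 (R 4.3.3), and Benjamini-Hochberg adjustment covered every tested probe set, with 0.05 as threshold. The relation with Rgs5 was fitted over strain means with each sex centred. Permutation tests used Python 3.11.15, numpy 2.4.6 and scipy 1.17.1, two-sided, with 100000 resamples, or all 5040 permutations for 7 strains. A gene's leading probe set is its brightest. The split of strains at the Rgs5 gap was made after its values were seen.

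The rule for named genes took, in each vessel list, up to 3 called genes of widest range and the 3 highest and lowest r with Rgs5, and over all genes the 8 highest and 8 lowest r. The members and the 14 lists were chosen with earlier results of these data known. Scripts were tested on simulated data.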

Additional observations from a re-analysis of the deposited data

How the results depend on the processing

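The alternatives were no filter, a filter of 25 arrays, an offset of 16, quantile normalization, array weights, leaving out doubted or single arrays, another Rgs5 probe set as covariate, either sex alone, and either set of strains. Under the filter of 25 arrays the calls of single strains numbered 34 instead of 53, since 1420940_x_at was no longer tested; leaving out single arrays gave 51 to 55. The count of probe sets called for strain was 7 without the filter and 7 to 10 with single arrays left out, that for sex 6 to 7, that for a relation with Rgs5 0 to 0, and that of agreement between male and female arrays 8 to 10.

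Called strain differences of the Rgs5 and Cldn5 probe sets and of Pdgfrb 1436970_a_at stayed called with any single array left out. Pdgfrb 1417148_at lost its call in 4 of the 7 other settings and in 39 of 50 with a single array left out. Myh11 lost its call without the filter (adjusted p = 0.0689) and with the offset of 16 (adjusted p = 0.0607), and Acta2 gained one under quantile normalization (adjusted p = 0.0369) and array weights (adjusted p = 0.0279), all by limma.

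Uncalled values near 0 changed sign. The sex difference of Flt1 1451756_at was 0.0079 under quantile normalization and -0.059 to 0.0077 with single arrays left out, and that of Rgs5 1420940_x_at -0.12 to 0.011. The slope of Flt1 1451756_at on Rgs5 was 0.0084 without SM/J and PL/J, 0.0028 with 1420942_s_at as covariate, 0.027 in males alone, 0.11 in the 7 strains, 0.30 in the 18 and -0.033 to 0.035 with single arrays left out. The slope of Pecam1 was -0.0045 on 1420940_x_at and -0.034 in females alone. On 1420941_at the slopes were -0.0047 for Pdgfrb 1417148_at, 0.0016 for Cldn5 and -0.011 for Flt1 1419300_at. Myh11 had -0.0255 in females alone and -0.049 in the 18 strains, Cldn5 0.038 in the 18, and Cdh5 -0.036 and Esam -0.21 in the 7. Without P/J and BTBT T+tf/J, r in the 18 strains was 0.067 for Myh11 and -0.039 for Cldn5. Male to female r with single strains left out ran from -0.19 to 0.045 for Flt1 1419300_at and from -0.22 to 0.20 for Pecam1. The causes were not tested.

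The male and female pools of a strain are paired by design: strain and sex were fitted together throughout, so that sex was compared within strains and strains with sex removed. With 1 pool of each sex a strain has no replicate within sex. Pecam1, Cdh5, Kdr and Flt1 1419300_at lie near the floor of the arrays, which limits their comparisons.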
